A study of Mus musculus with 16 samples.

Results

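RNA-seq was performed on whole colon tissue of mice in which *Il23r* had been deleted in Treg cells (*Il23r*ΔTreg). Tumors were compared across all genes with the adjacent normal tissue of the same mice. The main test compared group means, and the pairing within mice entered only as an alternative fit. The libraries were chosen by their names, which mark genotype, tissue and mouse. They numbered 10 of the 16 libraries of the study, with 5 tumor and 5 adjacent normal libraries from mouse2901, mouse2902, mouse2903, mouse2904 and mouse3883. The remaining 6 libraries came from the tumors and adjacent normal tissue of 3 WT mice. *Il23r*ΔTreg animals carried the Il23rflflFoxp3YFP-Cre genotype and WT animals Foxp3YFP-Cre, so that Cre was driven by *Foxp3* in both and deletion of the receptor was directed to Treg cells. All mice were male, entered the experiment at 7 to 8 weeks of age and received AOM/DSS. This was 10 mg/kg azoxymethane (AOM), a mutagen, followed by 3 cycles of 5 days of 3.5% dextran sulfate sodium (DSS), which injures the colon epithelium, with 16 days of recovery. No library without AOM/DSS was part of the comparison, so adjacent normal tissue is colon that had been through the same treatment. The labels give 3 cage numbers for these 5 mice. The tumor and the adjacent normal library of mouse2901 carry different ones, and the 3 WT mice share another, so cage and genotype cannot be told apart.

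In the healthy colon, stem cells at the crypt base are kept dividing by Wnt ligands from the surrounding stroma, and their progeny move up the crypt and become absorptive colonocytes, mucus-secreting goblet cells, hormone-secreting enteroendocrine cells or chemosensory tuft cells. When Wnt signaling is on, beta-catenin enters the nucleus, joins TCF/LEF factors and turns on targets that include the pathway's own inhibitors. AOM commonly mutates beta-catenin in mouse colon, and the tumors that follow DSS are adenomas and adenocarcinomas of the epithelium. IL-23, a cytokine of myeloid cells made of the subunits encoded by *Il23a* and *Il12b*, acts through the receptor encoded by *Il23r*.

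Library totals ran from 39416334 to 60836474 counts in tumors and from 45092714 to 53943842 counts in adjacent normal tissue. The 18S ribosomal RNA gene took 0.343 to 9.45% of the counts in tumors and 0.661 to 9.10% in adjacent normal tissue. *Il23r* itself had 1 to 9 counts in tumor libraries and 6 to 14 counts in adjacent normal libraries, below the filter, and because the deletion was directed to Treg cells these counts do not check the genotype. Spearman's rho between libraries across genes, which are not independent replicates, was 0.973 to 0.989 among tumors, 0.965 to 0.991 among adjacent normal tissues and 0.897 to 0.926 between a tumor and its own adjacent normal tissue. On the first principal component (67.1% of the variance) every tumor lay on one side and every adjacent normal library on the other.

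**Figure D1:**
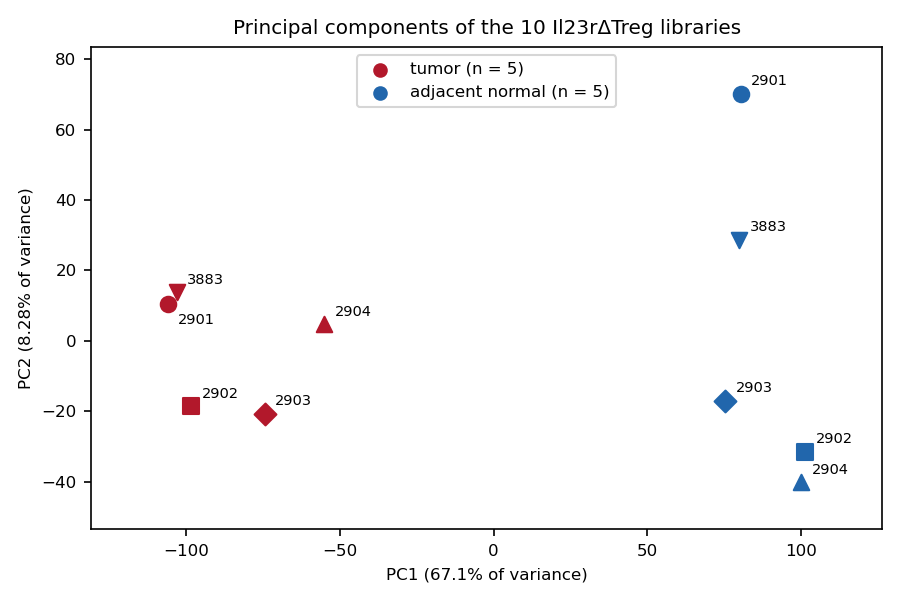
Principal components of the 10 *Il23r*ΔTreg libraries, computed on log2 CPM, with the first component (67.1% of variance) on the x axis and the second (8.28%) on the y axis. All 5 tumors lie to the left and all 5 adjacent normal libraries to the right, and the adjacent normal library of mouse2901 lies farthest up.

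Several libraries stood apart within their group. The adjacent normal library of mouse2901 was rich in B cell and plasma cell transcripts, with a summed level over 28 markers of 21229 CPM, against 5122 to 10235 CPM in the other 4 adjacent normal libraries. CPM are counts scaled to a common library size after TMM normalization. Keratins of squamous epithelium, a tissue found at the anus, were high in the tumors of mouse2901, mouse2904 and mouse3883 and in the adjacent normal libraries of mouse2901 and mouse3883, and were low in the rest (*Krt5* had 128, 0.438, 0.169, 96.3 and 211 CPM in the tumors and 87.4, 0.822, 0.507, 0.764 and 94.4 CPM in adjacent normal tissue). Here and below, values run in the order of mouse2901, mouse2902, mouse2903, mouse2904 and mouse3883, 1 library each. The adjacent normal libraries of mouse2903 and mouse3883 held low levels of some genes that were high in tumors, as with *Notum* at 0.237, 0.355, 20.8, 0.847 and 8.33 CPM. *Epcam*, the adhesion molecule of colon epithelium, had 1526, 1277, 1328, 1395 and 1319.8 CPM in tumors and 1231, 1499.8, 1537, 1886 and 1479.8 CPM in adjacent normal tissue, so that both tissues held it at like levels (log2 fold change -0.16, not called).

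Of 17122 genes tested, 1631 were higher in tumors (9.53%) and 2764 were lower (16.1%). A gene was called when edgeR's quasi-likelihood test, adjusted by the Benjamini-Hochberg method over all genes tested, gave a p under 0.05 and the log2 fold change passed 1 in size. The median change was 1.96 on the log2 scale among the genes called higher and -1.95 among those called lower, and -0.001 over all genes. At a log2 fold change beyond 4, the numbers were nearly even, with 276 genes higher and 278 lower. The 5 tumors and the 5 adjacent normal libraries did not overlap in 1323 of the genes called higher (81.1%) and in 2282 of those called lower (82.6%). Over all genes tested the tissues did not overlap in 6367 (37.2%), with all tumors higher in 17.2% and all tumors lower in 20.0%. In 1524 of the genes called higher and 2540 of those called lower, all 5 mice moved the same way. Without the adjacent normal library of mouse2901 the numbers were 1824 higher and 2618 lower, without the adjacent normal libraries of mouse2903 and mouse3883 they were 1581 and 2595, and without both libraries of mouse2901 and mouse3883 they were 1609 and 2131. In what follows, rose and fell are used of genes that were called, and a number in brackets after a gene is its log2 fold change of tumor over adjacent normal tissue. Counts of called list members are to be read beside the shares over all genes tested, 9.53% higher and 16.1% lower. A list near those shares moved no more than genes at large.

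**Figure D2:**
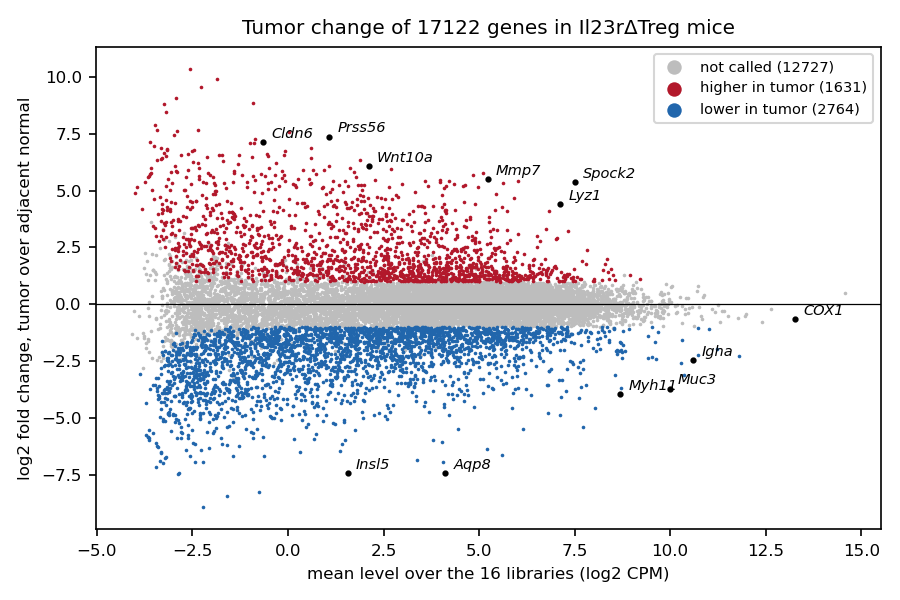
Log2 fold change of tumor over adjacent normal tissue (y axis) against the mean level (x axis, log2 CPM) for the 17122 genes tested, 1 point a gene. The mean is over the 10 *Il23r*ΔTreg libraries, although the axis label names 16. Red points are the 1631 genes higher in tumors and blue points the 2764 lower, and the labelled genes, from *Prss56* and *Wnt10a* at the top to *Insl5* and *Aqp8* at the bottom, are described in the text.

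Smooth muscle was the one list of 56 in which every member was called. All 24 smooth muscle markers were lower, and their summed level was 890 to 2830 CPM in tumors and 10800 to 15600 CPM in adjacent normal tissue, none of them being at 0 in any library. In bulk tissue, fewer cells of a type and less RNA per cell cannot be told apart. The part of muscle in the 2764 lower genes was not tested.

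Among genes whose mean log2 CPM reached 1 and whose tissues did not overlap, the 12 largest rises were led by *Prss56*, which encodes a serine protease. *Prss56* had 6.06, 46.3, 52.0, 24.9 and 75.8 CPM in tumors, against 0, 0, 0.548, 0.0620 and 0.589 CPM in adjacent normal tissue. The tumor of mouse2901 was the lowest and still above any adjacent normal library, and the log2 fold change was 7.37 (SE 0.99, adjusted p = 2.9e-05, edgeR's quasi-likelihood test). The others were *Muc6*, a gastric gland mucin (6.34), the imprinted noncoding RNA *H19* (6.10), *Wnt10a* (6.06), *Esyt3* (5.98), the Wnt target *Sp5* (5.96), the Paneth cell defensin *Defa36* (5.83), the lipase gene *Pnliprp2* (5.76), the hair-type keratin *Krt36* (5.68), the Wnt receptor *Fzd10* (5.61), *Mmp7* (5.50) and *Dkk2* (5.47). The 12 largest falls, by the same rule, included hormones, transporters and enzymes of the mature colon. They were *Insl5* (-7.43), *Aqp8* (-7.40), *Cyp2c55* (-6.94), *Hao2* (-6.86), *Car4* (-6.63), *Hsd3b3* (-6.43), *Slc26a3* (-6.34), *Gcg* (-6.14), *Sycn* (-6.04), *Apol10a* (-5.96), *Pck1* (-5.96) and *Foxd2* (-5.50).

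Most genes of the absorptive surface of the colon were lower in tumors. Of 30 surface colonocyte genes, 19 fell and 2 rose (1 without mouse2904, or with mouse as a block), with a median log2 fold change of -1.64. *Aqp8*, the water channel of the colonocyte surface, had 0.393, 1.71, 1.81, 3.65 and 0.628 CPM in tumors, against 261, 335, 132, 538 and 108 CPM in adjacent normal tissue. The highest tumor stayed far below the lowest adjacent normal library, a 169-fold fall (log2 fold change -7.40, SE 0.70, adjusted p = 1.5e-06 by edgeR's quasi-likelihood test). *Slc26a3*, which exchanges luminal chloride for bicarbonate, had 0.562, 4.88, 6.99, 13.0 and 1.52 CPM in tumors, against 234, 378, 507, 647 and 409.6 CPM in adjacent normal tissue. The tumors of mouse2901 and mouse3883 had the lowest levels and mouse2904 the highest, and no tumor came near the normal range (log2 fold change -6.34, SE 0.76). *Car4*, a membrane carbonic anhydrase, fell by 99.1-fold, and the butyrate and lactate transporter *Slc16a1* fell less (log2 fold change -1.63). *Muc3*, a mucin of the brush border membrane, had 76.2, 221, 462, 539 and 269 CPM in tumors, against 2992, 4044, 3246, 4850.2 and 5299 CPM in adjacent normal tissue (-3.70). One transporter of the same surface moved the other way. *Slc9a3*, the sodium and proton exchanger of the apical membrane, had 106, 198, 314, 125 and 80.6 CPM in tumors, against 37.9, 36.1, 32.6, 28.6 and 43.9 CPM in adjacent normal tissue, without overlap (log2 fold change 2.20, adjusted p = 0.00091 by edgeR's quasi-likelihood test). Its close partner in electroneutral sodium uptake, *Slc9a2*, fell (-2.33). Over the wider list of 33 ion and water transport genes, 18 fell and 1 rose.

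**Figure D3:**
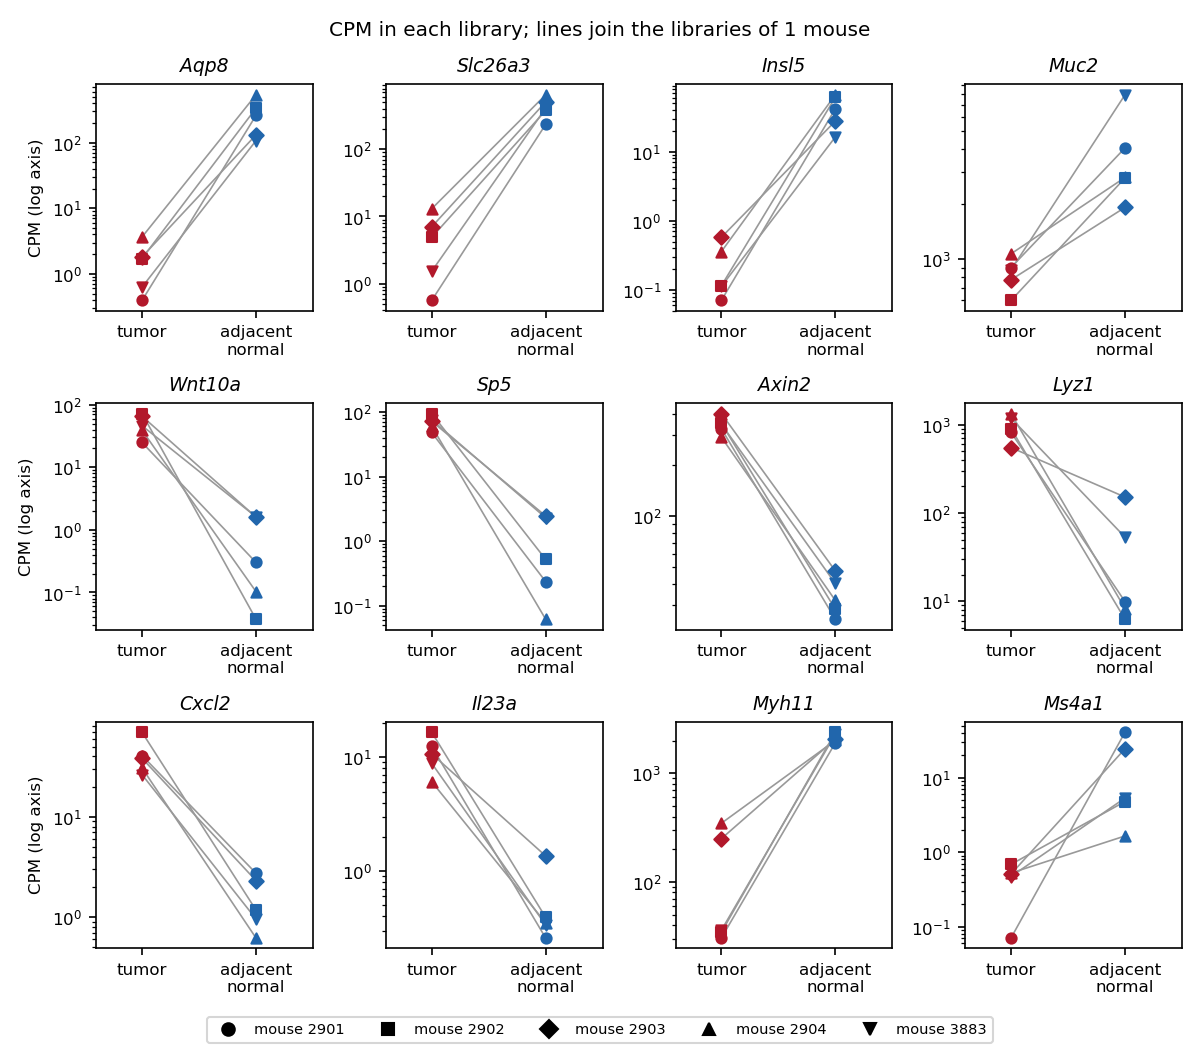
CPM in each library (y axes, log scale) for 12 genes, with tumors in red at the left, adjacent normal tissue in blue at the right, a symbol for each mouse and a line joining the libraries of 1 mouse. In every panel all 5 lines run the same way and the tissues do not overlap, as with *Aqp8* at 0.393 to 3.65 CPM in tumors and 108 to 538 CPM in adjacent normal tissue.

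Most goblet and enteroendocrine genes were lower as well, while fewer tuft cell genes were called. Of 23 goblet cell genes, 16 fell (median log2 fold change -2.05). *Muc2*, the main gel-forming mucin, had 903, 596, 774, 1072 and 875 CPM in tumors, against 4060.1, 2784, 1922, 2801 and 7925 CPM in adjacent normal tissue, where mouse3883 was the highest (log2 fold change -2.21, SE 0.35). The mucus component *Fcgbp* (-2.57), the mucin-folding enzyme *Agr2* (-2.05) and *Atoh1*, the transcription factor that sets the secretory fate (-2.28), fell with it. *Ang4*, a ribonuclease with antimicrobial activity that Paneth and goblet cells secrete, was the only member of the list to rise, to 580.2, 211, 65.5, 210.1 and 253 CPM in tumors, against 6.71, 3.36, 25.6, 19.1 and 13.9 CPM in adjacent normal tissue. Of 26 enteroendocrine genes, 21 fell, with a median of -3.92, the lowest of the 24 lists plotted. *Insl5*, the hormone of L cells of the distal colon, had 0.0702, 0.114, 0.576, 0.358 and 0.112 CPM in tumors, against 41.6, 61.1, 27.7, 66.5 and 16.3 CPM in adjacent normal tissue, and no tumor reached 1 CPM (log2 fold change -7.43, SE 0.77, adjusted p = 3.2e-06 by edgeR's quasi-likelihood test). *Gcg*, the glucagon and GLP-1 precursor of the same cells, had 0.0140, 0.152, 0.762, 0.882 and 0.157 CPM in tumors, against 27.1, 27.8, 18.5, 40.2 and 22.0 CPM in adjacent normal tissue, and the granule protein *Scg3* fell too (-4.57). Neurotensin (*Nts*), a hormone of the small intestine, was at low levels and went the other way, with 2.23, 3.33, 1.39, 2.34 and 2.29 CPM in tumors and 0.992, 0.0934, 0.122, 0.124 and 0.0841 CPM in adjacent normal tissue. Among 18 tuft cell genes, 7 fell and 1 rose. The number of falls was 4 when mouse was a block in the fit and 3 when only genes above 1 CPM in 5 libraries were tested. The summed level of the tuft cell list was higher in tumors by its median, at 158 to 246 CPM (median 213 CPM), against 107 to 159 CPM (median 126 CPM) in adjacent normal tissue. That sum includes *Avil*, the 1 member that rose, with 69.6 to 144 CPM in tumors and 4.98 to 13.6 CPM in adjacent normal tissue. The sum is therefore no measure of the other tuft cell genes. *Dclk1* had 4.94, 2.91, 4.32, 6.32 and 3.09 CPM in tumors, against 15.0, 10.95, 14.2, 10.97 and 15.4 CPM in adjacent normal tissue (log2 fold change -1.62). *Avil*, which encodes the actin-binding protein advillin and is often used to mark tuft cells, had 123, 114, 144, 69.6 and 88.9 CPM in tumors, against 4.98, 5.20, 13.6, 6.07 and 7.72 CPM in adjacent normal tissue, a 14.3-fold rise in all 5 mice.

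**Figure D4:**
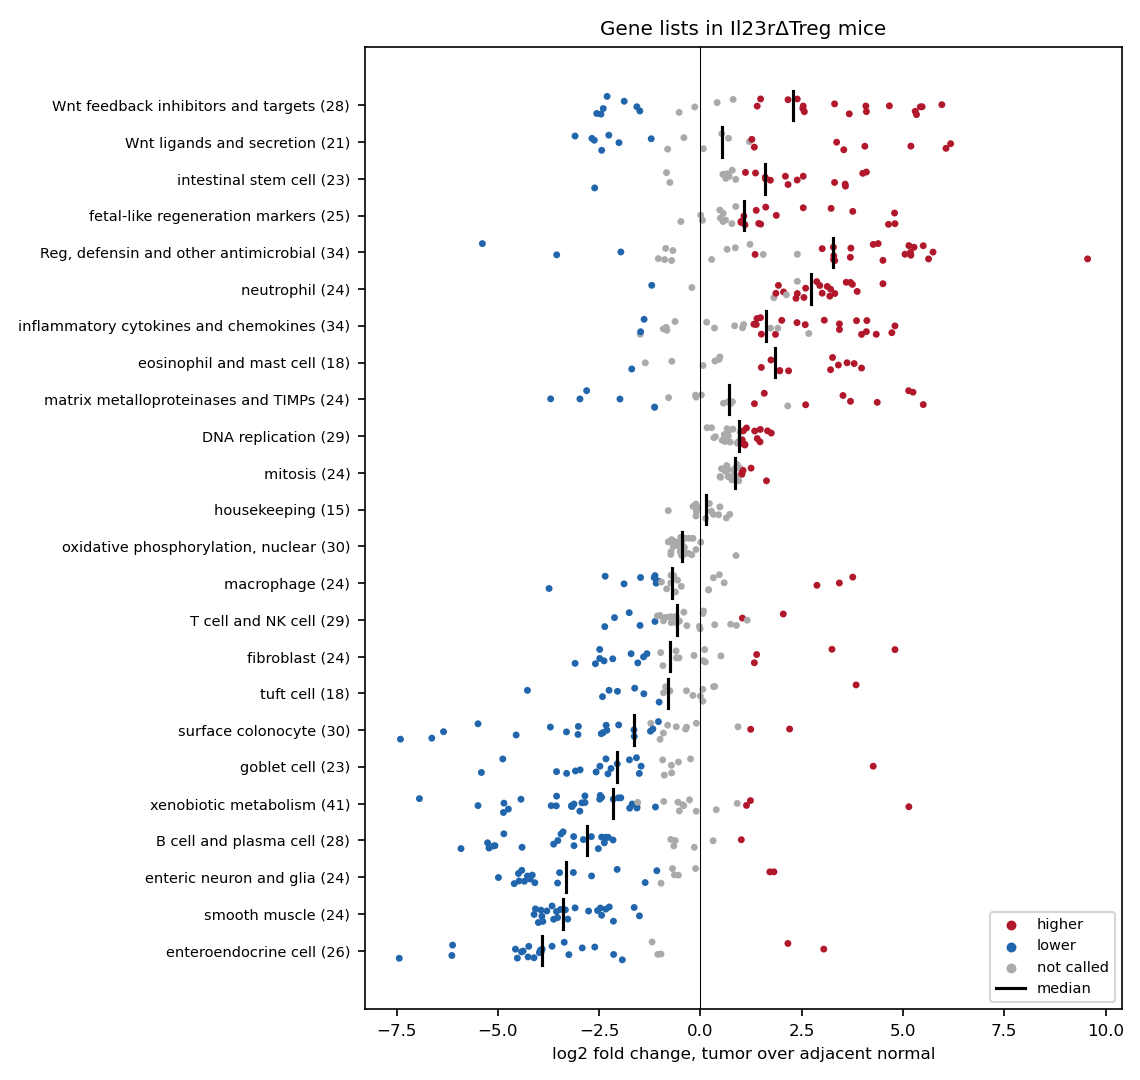
Log2 fold change of tumor over adjacent normal tissue (x axis) for every tested gene of 24 gene lists (rows, number of genes in brackets), with genes called higher in red, lower in blue and not called in gray, and the median of each list as a black bar. The medians run from -3.92 for enteroendocrine genes to 3.28 for antimicrobial genes, and the housekeeping median is 0.13. The point farthest right is *Mptx2*, whose adjacent normal libraries are all at 0, so that its place on the axis depends on the fit.

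Enzymes that handle drugs and dietary compounds were mostly lower too. Of 41 genes of xenobiotic metabolism, 28 fell and 3 rose (median log2 fold change -2.15). *Cyp2c55*, a colon cytochrome P450, had 0.239, 1.22, 7.37, 2.60 and 0.157 CPM in tumors, against 213, 230.3, 442, 385 and 154 CPM in adjacent normal tissue. The tumor of mouse2903 was the highest, and each mouse fell (log2 fold change -6.94, SE 0.97, adjusted p = 3.9e-05 by edgeR's quasi-likelihood test). *Abcb1a*, a drug efflux pump, had 16.2, 28.9, 57.9, 50.9 and 18.4 CPM in tumors, against 323, 408, 569, 411 and 307 CPM in adjacent normal tissue, an 11.7-fold fall. The exception was *Cyp2b10*, a P450 that the nuclear receptor CAR induces in liver, with 7.69, 11.1, 11.2, 7.82 and 7.15 CPM in tumors and 0.0216, 0.0561, 0.892, 0 and 0.286 CPM in adjacent normal tissue, and the smaller rises were in *Gsta4* (1.14, and 0.92, not called, without both libraries of mouse2901 and mouse3883) and *Ces1g* (1.23). Enzymes of steroid and retinoid handling were split, with 9 higher and 11 lower of 27. The retinaldehyde dehydrogenases went in opposite directions. *Aldh1a1* had 2.33, 5.11, 4.78, 3.72 and 4.33 CPM in tumors, against 23.3, 31.7, 31.5, 36.9 and 22.5 CPM in adjacent normal tissue (-2.85), and *Aldh1a3* had 235, 302, 228, 267 and 289.8 CPM in tumors, against 50.9, 20.1, 31.7, 24.3 and 66.3 CPM in adjacent normal tissue (2.77). *Stra6*, the cell surface receptor for retinol-binding protein, had 146, 377, 473, 194 and 182 CPM in tumors, against 15.3, 3.72, 12.9, 2.85 and 13.0 CPM in adjacent normal tissue, and mouse2903 had the highest tumor level. The retinoic acid receptor gene *Rarb* rose by less (1.72).

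HNF4 factors maintain the enterocyte program, and *Hnf4a* itself had 354, 315, 336, 362 and 309 CPM in tumors, against 566, 684, 689, 1048 and 599 CPM in adjacent normal tissue, just past the fold threshold (log2 fold change -1.10, and -0.95, not called, without mouse2904). Promoter windows of RefSeq genes (250 bases before to 50 after the transcription start, GRCm38.p6, matched by Entrez identifier) were available for 13152 of the genes tested. The letters CAAAGTNCA, which match part of the sequence HNF4 binds, were searched on both strands and counted once where they overlapped. They were present in 5 of 37 xenobiotic genes with a window (13.5%), in 0 of 23 surface colonocyte genes, in 2.04% of the genes called lower and in 1.49% of all. All 5 of these xenobiotic genes fell. Windows of a pair of them, *Cyp2c68* (-4.74) and *Abcb1a*, are shown with the match in capitals, 5′ to 3′ on the strand of the gene. The *Cyp2c68* window is chr19:39741052-39741351 on the minus strand, with the match starting at -77 from the transcription start, and the *Abcb1a* window is chr5:8566841-8567140 on the plus strand, with the match at -179. A match describes the letters and is not a measured binding site.
Cyp2c68: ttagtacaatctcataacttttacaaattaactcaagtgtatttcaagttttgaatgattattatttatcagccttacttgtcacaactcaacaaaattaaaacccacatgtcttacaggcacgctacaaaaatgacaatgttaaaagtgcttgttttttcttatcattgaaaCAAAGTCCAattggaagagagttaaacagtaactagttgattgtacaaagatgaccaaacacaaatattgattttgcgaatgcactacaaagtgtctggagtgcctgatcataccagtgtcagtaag
Abcb1a: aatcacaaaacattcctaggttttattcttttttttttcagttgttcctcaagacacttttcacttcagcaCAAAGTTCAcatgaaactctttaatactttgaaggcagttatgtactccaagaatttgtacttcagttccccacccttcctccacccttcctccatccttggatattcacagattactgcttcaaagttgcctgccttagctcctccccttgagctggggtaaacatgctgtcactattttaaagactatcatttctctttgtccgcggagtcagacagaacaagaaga

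Respiratory chain genes moved by less than the fold threshold. Each of 30 nuclear genes of oxidative phosphorylation stayed within a log2 fold change of 1, but 28 were negative and 14 were lower at an adjusted p under 0.05 without the fold limit (median -0.45). All 13 mitochondrially encoded genes were negative too. *COX1*, the cytochrome oxidase subunit in mitochondrial DNA, had 6959, 7933, 8512, 8773 and 7438 CPM in tumors, against 11093, 13167, 14095, 11944 and 12110.4 CPM in adjacent normal tissue, without overlap (log2 fold change -0.66, adjusted p = 0.0051 by edgeR's quasi-likelihood test). Of 32 genes of fatty acid oxidation and ketogenesis, 10 fell, led by the intestinal fatty acid binding protein *Fabp2* (-4.35) and the fatty acid carrier *Cd36* (-2.59). *Pck1*, the rate-limiting enzyme of gluconeogenesis, had 0.730, 0.972, 3.997, 3.24 and 1.26 CPM in tumors, against 50.2, 195, 134, 149.7 and 106 CPM in adjacent normal tissue. Glycolysis and hypoxia genes were mostly not called, with 1 higher (the lactate exporter *Slc16a3*, 2.27) and 5 lower of 32 (3 without mouse2902). Over all genes tested, 9.53% were higher and 16.1% lower. Among 21 amino acid transporters, 8 fell and 6 rose. The apical peptide transporter *Slc15a1* fell (-3.92), and the cystine importer *Slc7a11* (2.74) and *Slc7a8* (2.83) rose. Antioxidant genes were mostly not called, 7 of 28 being higher and 4 without mouse2902. They included *Hmox1* (1.96) and *Mt3*, a metallothionein best known from brain, with 60.5, 183, 128, 113 and 130.0 CPM in tumors and 1.96, 1.16, 7.89, 1.71 and 3.73 CPM in adjacent normal tissue.

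Most targets of the Wnt pathway rose. Of 28 feedback inhibitors and targets, 17 rose and 7 fell (median 2.27). *Axin2*, the scaffold that marks the pathway's activity, had 327, 351, 401, 291 and 347 CPM in tumors, against 24.8, 28.4, 47.7, 32.0 and 40.2 CPM in adjacent normal tissue. The tumors lay within a narrow range, and the rise was 9.92-fold (log2 fold change 3.31, SE 0.20, adjusted p = 9.3e-08 by edgeR's quasi-likelihood test). *Sp5*, a transcription factor that TCF/LEF factors induce, had 48.2, 94.7, 72.1, 60.2 and 75.9 CPM in tumors, against 0.237, 0.523, 2.45, 0.0620 and 2.30 CPM in adjacent normal tissue, and the adjacent normal libraries of mouse2903 and mouse3883 were the highest of their group. *Nkd1*, which restrains Dishevelled, had 307, 592, 668, 419.9 and 498 CPM in tumors, against 20.3, 20.5, 49.1, 20.5 and 36.2 CPM in adjacent normal tissue (log2 fold change 4.08). The ubiquitin ligases that remove Wnt receptors, *Rnf43* (2.54) and *Znrf3* (2.39), rose in all 5 mice. So did *Notum*, which inactivates Wnt proteins by removing their lipid, at 152, 277, 318, 229.6 and 230.2 CPM in tumors, against 0.237, 0.355, 20.8, 0.847 and 8.33 CPM in adjacent normal tissue. The members that fell included the secreted Wnt binder *Sfrp2* (-2.56), *Nkd2* (-2.30) and *Cdx1* (-1.57), and 4 members in place of 7 fell without both libraries of mouse2901 and mouse3883. *Ctnnb1*, which encodes beta-catenin, was higher by less than the fold threshold, with 1329, 1419, 1481, 1306 and 1291 CPM in tumors and 643, 797, 926, 895 and 729 CPM in adjacent normal tissue (log2 fold change 0.77).

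The *Sp5* promoter window was the only one of 15 windowed genes of this list with a TCF match (the letters CTTTGAA or CTTTGAT, both strands, overlaps counted once). Such a match was present in 12.1% of the genes called higher, 8.63% of those called lower and 7.86% of all genes with a window, and in 6 of the 37 xenobiotic genes with a window (16.2%), from the list in which 28 of 41 genes fell. The window is chr2:70474673-70474972 on the plus strand of GRCm38.p6 (RefSeq), with the match in capitals at -104 from the transcription start.
Sp5: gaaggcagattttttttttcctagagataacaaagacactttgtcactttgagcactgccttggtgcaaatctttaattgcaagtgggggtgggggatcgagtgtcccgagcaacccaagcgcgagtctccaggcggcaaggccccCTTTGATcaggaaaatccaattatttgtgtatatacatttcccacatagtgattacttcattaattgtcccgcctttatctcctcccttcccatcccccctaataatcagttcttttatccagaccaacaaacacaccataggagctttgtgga

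The Wnt ligands moved in both directions. Of 21 ligands and secretion genes, 8 rose and 7 fell, and 4 fell without both libraries of mouse2901 and mouse3883. *Wnt10a* had 24.9, 72.2, 65.4, 39.0 and 46.2 CPM in tumors, against 0.302, 0.0374, 1.60, 0.103 and 1.61 CPM in adjacent normal tissue. The tumor of mouse2901 was the lowest, and the tissues did not overlap (log2 fold change 6.06, SE 0.77, adjusted p = 1.7e-05 by edgeR's quasi-likelihood test). *Wnt6* had 31.6, 145, 104, 66.9 and 87.1 CPM in tumors, against 1.68, 1.55, 3.85, 0.847 and 3.89 CPM in adjacent normal tissue (5.19), with mouse2901 again the lowest tumor. *Wnt3*, a ligand of Paneth cells in the small intestine, rose (4.06). *Wnt2b*, a ligand of the stroma, had 2.57, 1.52, 2.52, 4.20 and 3.03 CPM in tumors, against 10.5, 16.8, 9.73, 14.0 and 15.2 CPM in adjacent normal tissue, and *Rspo3*, the stromal R-spondin that sustains the stem cell niche, had 1.43, 0.819, 1.59, 4.05 and 1.30 CPM in tumors, against 14.7, 10.5, 10.8, 7.35 and 12.9 CPM in adjacent normal tissue. *Wnt2*, another stromal ligand, fell as well (-2.44). Smooth muscle markers were lower in the same tumors, and their part in the fall of these ligands was not tested. *Fzd10*, a Wnt receptor, had 5.88, 47.0, 35.7, 23.3 and 18.3 CPM in tumors, against 0.388, 0.579, 0.548, 0.475 and 0.656 CPM in adjacent normal tissue.

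Most stem cell genes rose, with 14 of 23 higher and 1 lower. *Lgr5*, the receptor for R-spondins that marks crypt base stem cells, had 111, 59.5, 55.1, 66.9 and 105 CPM in tumors, against 1.85, 5.72, 8.27, 1.84 and 5.52 CPM in adjacent normal tissue, and mouse2901 and mouse3883 had the highest tumors (log2 fold change 4.10). *Tnfrsf19*, a Wnt target also known as Troy, rose to 44.6, 96.8, 108, 58.2 and 50.02 CPM, against 3.90, 5.44, 9.05, 4.13 and 7.40 CPM in adjacent normal tissue. The exception was the water channel *Aqp4* (-2.61), which fell, and 3 members of the list did without mouse2901. Markers of the fetal-like state that repairing epithelium takes on were also higher, with 15 of 25 called and 24 positive. They included the tight junction protein *Cldn4*, with 477, 559, 526, 384 and 516 CPM in tumors and 46.1, 48.5, 63.8, 61.3 and 43.7 CPM in adjacent normal tissue, and the cytokine *Il11*, with 51.0, 6.84, 14.6, 14.2 and 42.4 CPM in tumors and 2.39, 0.355, 0.446, 0.227 and 1.21 CPM in adjacent normal tissue. *Il11* was highest in the tumors of mouse2901 and mouse3883. *Msln*, a surface protein of mesothelium and of some carcinomas, rose too (4.64).

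Other growth factor pathways were split. Of 15 EGF family genes, 4 rose and 3 fell. The ligand *Tgfa* had 54.3, 72.8, 85.2, 62.6 and 63.6 CPM in tumors, against 27.6, 24.5, 26.2, 23.7 and 33.1 CPM in adjacent normal tissue (1.32), and *Ereg* (1.67), *Hbegf* (1.49) and *Nrg1* (1.62) were the other ligands that rose. *Lrig3*, of a family whose members restrain receptor signaling, had 11.7, 12.9, 10.0, 14.8 and 13.2 CPM in tumors, against 52.7, 88.7, 68.7, 84.2 and 72.4 CPM in adjacent normal tissue (-2.55). BMP signals favor differentiation of the crypt, and of 31 BMP and hedgehog genes 6 rose and 9 fell. *Bmp3* had 1.57, 1.35, 3.66, 3.55 and 3.68 CPM in tumors, against 13.8, 24.2, 19.2, 17.5 and 19.5 CPM in adjacent normal tissue (-2.77). *Bmp7* moved the other way, with 36.0, 51.9, 54.0, 43.3 and 50.7 CPM in tumors and 12.03, 7.38, 7.30, 7.04 and 11.6 CPM in adjacent normal tissue (2.38), as did *Fst*, which encodes the activin antagonist follistatin (4.37). Of 21 Notch pathway genes, 4 rose and 2 fell, against 9.53% higher and 16.1% lower over all genes tested. The receptor *Notch1* (1.18) and the ligand *Jag2* (1.43) were among those that rose.

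Transcription factors of lineage and position changed in both directions, 12 of 38 being higher and 11 lower. *Prox1*, a Wnt target in colon tumors and a factor of lymphatic endothelium, had 325, 372, 405, 332 and 375 CPM in tumors, against 6.17, 5.10, 37.8, 4.42 and 17.9 CPM in adjacent normal tissue (log2 fold change 4.66, SE 0.55). *Sox4* had 489, 350.4, 312, 303 and 344 CPM in tumors, against 38.9, 45.3, 67.9, 38.3 and 53.5 CPM in adjacent normal tissue (2.88). *Sox11*, a factor of embryonic tissues, rose (5.35). Among those that fell, *Cdx1* had 115, 69.7, 71.5, 100.2 and 89.4 CPM in tumors, against 243, 297, 206, 339.6 and 238 CPM in adjacent normal tissue, and *Klf4*, which goblet cells and surface colonocytes need, had 78.5, 155, 136, 187 and 118 CPM in tumors, against 461, 449, 470.0, 668 and 474 CPM in adjacent normal tissue. The vitamin D receptor *Vdr* fell with them (-2.48). Of 32 Hox and Cdx genes, 5 rose and 7 fell, against 9.53% higher and 16.1% lower over all genes tested. The 5 that rose were the neighbors *Hoxb5* (1.05), *Hoxb6* (2.29), *Hoxb7* (2.13) and *Hoxb8* (1.33), and *Hoxd12* (2.30). *Hoxb5* was not called without mouse2902 or mouse2904, and neither *Hoxb5* nor *Hoxd12* was called without both libraries of mouse2901 and mouse3883.

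Growth genes of the embryo and of imprinted loci were higher in 8 of 16 and lower in 2. *H19* had 58.6, 4.52, 6.88, 9.27 and 38.6 CPM in tumors, against 0.345, 0.0561, 0.203, 0.331 and 0.757 CPM in adjacent normal tissue. The tumors of mouse2901 and mouse3883 stood above the other 3, and all 5 tumors were above every adjacent normal library (log2 fold change 6.10, SE 0.94). *Plagl1*, an imprinted zinc finger gene, had 16.3, 28.2, 52.4, 27.6 and 27.7 CPM in tumors, against 2.70, 1.87, 2.88, 1.18 and 2.96 CPM in adjacent normal tissue. *Igf2*, the neighbor of *H19*, was not called (log2 fold change -0.75, and -1.07, called, without both libraries of mouse2901 and mouse3883). Genes known from stomach and pancreas were among the largest rises. *Muc6* had 8.72, 71.4, 112, 32.4 and 45.8 CPM in tumors, against 0.0431, 0.0748, 1.18, 0.145 and 1.83 CPM in adjacent normal tissue, and the lipase gene *Pnliprp2* had 105, 379, 459, 392 and 285 CPM in tumors, against 1.10, 2.56, 13.7, 2.67 and 9.74 CPM in adjacent normal tissue. The tumor of mouse2901 was the lowest for each. Of 19 keratins, 5 rose and none fell by edgeR's test (11 rose without both libraries of mouse2901 and mouse3883, the mice with squamous keratins in both tissues). *Krt36* had 168, 324, 141, 171 and 315 CPM in tumors, against 3.69, 1.72, 8.21, 2.77 and 5.43 CPM in adjacent normal tissue. Of 30 claudins and junction genes, 5 rose (3 without mouse2904) and 4 fell, against 9.53% higher and 16.1% lower over all genes tested. *Cldn8* (-2.77), a sealing claudin of the distal colon, *Cldn15* (-2.33) and *Cldn1* (-2.76) fell, and *Cldn4* (3.23) and *Cldn6*, an embryonic claudin, rose. *Cldn6* had 1.18, 12.1, 12.2, 8.08 and 5.20 CPM in tumors, against 0, 0, 0, 0.0413 and 0.202 CPM in adjacent normal tissue.

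Cell cycle genes had positive changes of small size. All 29 DNA replication genes had positive changes, 24 at an adjusted p under 0.05, and 13 passed the fold threshold (median 0.94). That count was 7 without mouse3883, 8 without the adjacent normal libraries of mouse2903 and mouse3883, and 6 without both libraries of mouse2901 and mouse3883. *Rrm2*, a subunit of ribonucleotide reductase, had 66.9, 48.5, 43.9, 39.5 and 65.4 CPM in tumors, against 25.9, 10.8, 12.3, 15.0 and 14.6 CPM in adjacent normal tissue (1.75). All 24 mitosis genes were positive as well, with 5 past the fold threshold, and this count ran from 1 without mouse3883 to 12 without the adjacent normal library of mouse2901 (11 without mouse2903 and 10 without the tumor of mouse2904). *Mybl2*, a factor of late cell cycle genes, had 37.6, 22.6, 20.1, 17.4 and 30.3 CPM in tumors, against 12.9, 6.60, 7.42, 6.12 and 8.31 CPM in adjacent normal tissue (1.63). *Mki67*, the gene of the proliferation antigen Ki-67, had 384, 99.2, 224, 189.6 and 292 CPM in tumors and 223, 147, 239, 86.2 and 135 CPM in adjacent normal tissue, which overlapped, and was not called (log2 fold change 0.52, adjusted p = 0.49 by edgeR's quasi-likelihood test). *Myc* had 90.1, 65.0, 72.9, 67.1 and 69.7 CPM in tumors, against 30.1, 24.4, 19.2, 31.2 and 25.5 CPM in adjacent normal tissue (1.48), and *Ccnd1*, cyclin D1, had 254, 227, 214, 220.3 and 241 CPM in tumors, against 96.1, 67.6, 87.9, 100.3 and 85.9 CPM in adjacent normal tissue, a 2.64-fold rise. Of 23 brakes and senescence genes, 7 rose and none fell by edgeR's test. *Cdkn1c*, the imprinted inhibitor p57, had 26.1, 45.3, 48.4, 35.9 and 47.3 CPM in tumors, against 7.50, 5.53, 6.63, 8.35 and 5.94 CPM in adjacent normal tissue (2.58), and *Cdkn2a*, which encodes p16 and p19ARF, had 14.8, 7.98, 5.22, 2.26 and 11.1 CPM in tumors, against 0.345, 0.224, 0.690, 0.145 and 0.976 CPM in adjacent normal tissue (4.10), while *Cdkn1a* was not called (-0.32).

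Antimicrobial genes, several of them products of Paneth cells that the normal mouse colon lacks, were among the strongest rises. Of 34 Reg, defensin and other antimicrobial genes, 20 rose and 3 fell (5 with mouse as a block), with a median of 3.28. The summed level of the list went the other way by its median. It was 3800 to 6190 CPM (median 5890 CPM) in tumors and 5980 to 8840 CPM (median 7630 CPM) in adjacent normal tissue. *Lyz1*, Paneth cell lysozyme, had 818, 903, 551, 1338 and 1184 CPM in tumors, against 9.92, 6.26, 151, 8.26 and 53.3 CPM in adjacent normal tissue. The adjacent normal libraries of mouse2903 and mouse3883 were the highest of their group and lay below every tumor (log2 fold change 4.39, SE 0.82, adjusted p = 0.00046 by edgeR's quasi-likelihood test). The defensin *Defa36* had 40.5, 40.4, 39.0, 42.0 and 35.7 CPM in tumors, against 0, 0, 2.15, 0.620 and 0.690 CPM in adjacent normal tissue, with hardly any spread among tumors. Alpha-defensin genes are near copies of each other, so how their reads were divided among them is uncertain. *Itln1*, a lectin that binds microbial sugars, had 214, 200.3, 85.6, 195 and 186 CPM in tumors, against 1.55, 2.02, 14.4, 2.73 and 3.52 CPM in adjacent normal tissue (5.19). *Mptx2*, a pentraxin of Paneth cells, had 2.11, 0.191, 6.03, 0.381 and 0.896 CPM in tumors, while all 5 adjacent normal libraries were at 0. Its relative *Mptx1*, which the colon expresses, moved the other way, with 70.0, 32.3, 13.1, 59.0 and 42.7 CPM in tumors and 140.5, 1019, 318, 974 and 87.8 CPM in adjacent normal tissue (-3.55). *Pla2g2a* (3.28) and *Lcn2* (4.50), the iron-scavenging lipocalin of inflamed epithelium and neutrophils, rose. *Pigr*, which carries IgA across the epithelium, fell, with 1098, 1414, 1300.0, 1664 and 727 CPM in tumors and 4042, 5301, 5479, 5448 and 3929.6 CPM in adjacent normal tissue.

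Neutrophil genes and the signals that draw neutrophils were higher together. Of 24 neutrophil genes, 19 rose and 1 fell (*Cd177*, -1.20, which was not called without mouse2902, without mouse2904 or without the adjacent normal library of mouse2901). The tissues did not overlap in 9 of the 24. The summed level of the list did overlap, at 578 to 1790 CPM in tumors and 278 to 1030 CPM in adjacent normal tissue, and the tumor of mouse2903 was the lowest. *Acod1*, the itaconate-producing enzyme of activated myeloid cells, had 18.6, 39.0, 21.3, 15.9 and 16.7 CPM in tumors, against 4.83, 1.08, 0.832, 0.764 and 0.824 CPM in adjacent normal tissue, where mouse2901 was the highest (log2 fold change 3.75). The gelatinase *Mmp9* (3.70) rose as well. Of 34 inflammatory cytokines and chemokines, 19 rose and 2 fell (1 without mouse2901 or mouse2903), with a median of 1.62. *Cxcl2*, a ligand of the neutrophil receptor CXCR2, had 40.8, 69.6, 38.4, 30.7 and 26.3 CPM in tumors, against 2.74, 1.18, 2.31, 0.620 and 0.959 CPM in adjacent normal tissue, a 26.4-fold rise with mouse2902 the highest tumor (log2 fold change 4.72, SE 0.39, adjusted p = 7.1e-07 by edgeR's quasi-likelihood test). *Cxcl1* had 24.4, 23.1, 18.3, 16.0 and 26.5 CPM in tumors, against 3.00, 0.617, 0.426, 0.971 and 1.28 CPM in adjacent normal tissue (4.11). *Ccl24*, an attractant of eosinophils, rose (3.85). The epithelial cytokine *Il18* fell, with 18.5, 31.1, 27.8, 29.7 and 20.2 CPM in tumors and 52.8, 86.0, 75.8, 97.8 and 41.6 CPM in adjacent normal tissue. For IL-23 itself, *Il23a* had 12.5, 16.6, 10.7, 6.10 and 8.85 CPM in tumors, against 0.259, 0.392, 1.36, 0.351 and 0.336 CPM in adjacent normal tissue, where mouse2903 was the highest (log2 fold change 4.34, SE 0.46, adjusted p = 4.0e-06 by edgeR's quasi-likelihood test). The partner subunit *Il12b* had 0.112, 0.400, 0.542, 1.02 and 0.247 CPM in tumors and 0.927, 0.336, 1.46, 0.537 and 1.09 CPM in adjacent normal tissue, which overlapped, and was not called (-0.92). *Ptgs2*, which encodes the prostaglandin-producing enzyme COX-2, had 46.8, 20.2, 45.0, 27.7 and 30.8 CPM in tumors, against 4.98, 2.49, 5.96, 2.87 and 2.93 CPM in adjacent normal tissue (3.15).

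Other immune cells did not move together. Eosinophil and mast cell genes were higher in 11 of 18 (7 without mouse2901), among them the IgE receptor subunit *Ms4a2*, with 4.91, 1.39, 6.50, 0.977 and 1.95 CPM in tumors and 0.431, 0.0187, 0.548, 0.0620 and 0.420 CPM in adjacent normal tissue, and *Alox15*, with 11.6, 37.1, 143, 36.2 and 30.1 CPM in tumors and 4.05, 2.19, 4.50, 2.81 and 7.42 CPM in adjacent normal tissue. The tumor of mouse2903 was the highest for both. *Kit*, the receptor of mast cells and also of the pacemaker cells of the gut, fell (-1.70). Of 24 macrophage genes, 8 fell and 3 rose (5 fell without mouse2901). The scavenger receptor *Cd163*, of resident macrophages, had 0.0562, 0.210, 0.542, 1.38 and 0.134 CPM in tumors, against 4.20, 9.53, 6.98, 5.87 and 3.87 CPM in adjacent normal tissue (-3.74), and *Adgre1*, which encodes F4/80, had 6.53, 12.8, 19.3, 17.9 and 9.77 CPM in tumors, against 37.9, 37.1, 36.1, 31.8 and 41.7 CPM in adjacent normal tissue (-1.48). The arginase gene *Arg1* rose, with 112, 104, 66.5, 81.8 and 117 CPM in tumors, against 31.2, 1.14, 0.994, 1.47 and 30.7 CPM in adjacent normal tissue, where mouse2901 and mouse3883 were the highest. *Spp1*, osteopontin, rose too (3.76). Of 29 T cell and NK cell genes, 5 fell (3 without mouse2901) and 2 rose (5 without mouse2901, and 1 without each of the other mice in turn). The other 22 were not called, and over all genes tested 16.1% fell and 9.53% rose, so the list as a whole stayed near those shares. *Cd4* had 3.69, 8.38, 10.8, 13.3 and 4.66 CPM in tumors, against 37.8, 20.6, 28.6, 17.0 and 33.9 CPM in adjacent normal tissue (-1.76), and *Cd28*, the costimulatory receptor, fell with it (-2.36). *Foxp3*, the Treg cell factor, had 0.702, 0.667, 1.22, 1.05 and 0.762 CPM in tumors and 1.66, 0.374, 0.913, 0.227 and 1.04 CPM in adjacent normal tissue, which overlapped, and was not called (0.06, -0.25 without mouse2904, and up to 0.95 under the alternatives). Interferon-stimulated genes were higher in 4 of 29, against 9.53% over all genes tested. That count was 11 without mouse2901, 7 without only its adjacent normal library, and 2 without mouse2902, mouse2904 or mouse3883.

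B cell genes had the lowest median of the immune cell lists. Of 28 B cell and plasma cell genes, 22 fell (21 without the adjacent normal library of mouse2901), with a median of -2.79. *Ms4a1*, which encodes the B cell surface protein CD20, had 0.0702, 0.686, 0.508, 0.524 and 0.471 CPM in tumors, against 41.0, 4.80, 24.6, 1.65 and 5.35 CPM in adjacent normal tissue. Those of mouse2901 and mouse2903 were the highest adjacent normal libraries, and the lowest, of mouse2904, stayed above every tumor (log2 fold change -5.11, SE 0.90, adjusted p = 0.00028 by edgeR's quasi-likelihood test). *H2-Ob*, a class II chaperone of B cells, had 0.435, 1.18, 2.07, 1.55 and 0.650 CPM in tumors, against 35.6, 8.52, 24.7, 3.26 and 7.64 CPM in adjacent normal tissue (-3.76). *Igha*, the heavy chain of IgA, had 264, 758, 1108, 2047 and 213 CPM in tumors, against 11475, 2405, 2258, 2514 and 5158 CPM in adjacent normal tissue, where mouse2901 was the highest. Its log2 fold change was -2.44 (adjusted p = 0.0068 by edgeR's quasi-likelihood test), and -0.88 (adjusted p = 0.236 by the same test) without both libraries of mouse2901 and mouse3883.

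**Figure D5:**
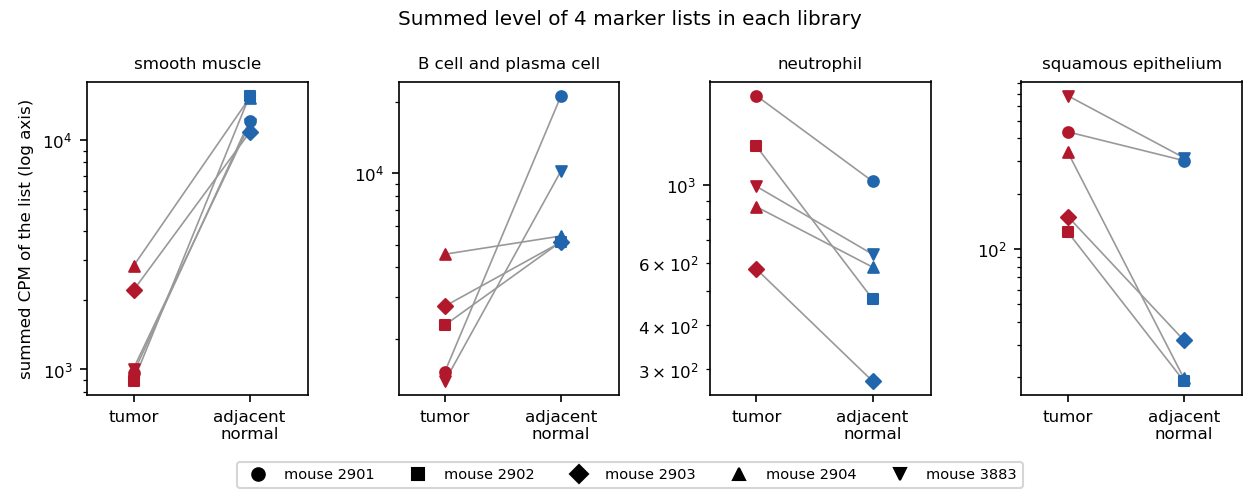
Summed CPM of 4 marker lists in each library (y axes, log scale), with tumors in red at the left and adjacent normal tissue in blue at the right, a symbol for each mouse and a line joining the libraries of 1 mouse. Smooth muscle markers sum to 890 to 2830 CPM in tumors and 10800 to 15600 CPM in adjacent normal tissue, the B cell sum of the adjacent normal library of mouse2901 stands at 21229 CPM, and squamous sums are high in both libraries of mouse2901 and mouse3883 and in the tumor of mouse2904. Neutrophil sums overlap, at 578 to 1790 CPM in tumors and 278 to 1030 CPM in adjacent normal tissue.

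Muscle genes and most genes of enteric nerves were lower in tumors, while fibroblast genes moved in both directions and most endothelial genes were not called. All 24 smooth muscle genes fell, without overlap in any (median -3.39). *Myh11*, smooth muscle myosin, had 30.5, 34.4, 250.4, 347 and 35.8 CPM in tumors, against 1914, 2393, 2073, 2014 and 2297 CPM in adjacent normal tissue. The tumors of mouse2903 and mouse2904 held the most, and still far less than the normal range (log2 fold change -3.94, SE 0.74, adjusted p = 0.00046 by edgeR's quasi-likelihood test). Of 24 genes of enteric neurons and glia, 17 fell. *Calb2*, calretinin of enteric neurons, had 0.253, 0.0953, 0.288, 0.429 and 0.0672 CPM in tumors, against 5.28, 4.97, 5.03, 4.98 and 5.20 CPM in adjacent normal tissue (-4.48), and *Nos1*, the nitric oxide synthase of inhibitory motor neurons, had 0.211, 0.171, 0.627, 0.906 and 0.157 CPM in tumors, against 11.1, 6.15, 4.85, 7.11 and 12.6 CPM in adjacent normal tissue (-4.34). *Ret*, the receptor of enteric neuron precursors, which some epithelial cells also express, rose (1.71). Of 24 fibroblast genes, 10 fell and 4 rose. *Cxcl12*, a stromal chemokine, had 15.8, 14.5, 23.5, 48.6 and 21.3 CPM in tumors, against 192, 128, 97.9, 133 and 142 CPM in adjacent normal tissue (-2.49). *Inhba*, which encodes the activin A subunit, had 79.3, 34.6, 48.2, 44.5 and 69.7 CPM in tumors, against 8.95, 3.27, 6.35, 2.11 and 8.44 CPM in adjacent normal tissue (3.25), and *Wnt5a* rose as well (1.33). Of 24 endothelial genes, 4 rose, 2 fell and 18 were not called, against 9.53% higher and 16.1% lower over all genes tested. The growing-vessel genes *Apln* (2.43), *Esm1* (1.98) and *Angpt2* (1.68) were among those that rose. The adhesion molecule *Vcam1* (-1.73) was among those that fell. The pan-endothelial genes *Pecam1* (-0.54) and *Cdh5* (0.14) were not called.

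Matrix genes and the enzymes that cut matrix moved in both directions. Of 37 collagen and matrix genes, 8 rose and 10 fell. *Lama5*, a laminin chain of epithelial basement membrane, rose, with 188, 231, 262, 162 and 230.1 CPM in tumors and 63.6, 51.6, 39.0, 50.6 and 66.3 CPM in adjacent normal tissue (1.99). Muscle laminin *Lama2* (-1.79), elastin *Eln* (-1.95) and *Postn* (-2.49) fell. The fibrillar collagen gene *Col1a1* was not called (0.07, -0.18 without mouse2903, and up to 0.42 under the alternatives). Of 24 matrix metalloproteinases and TIMPs, 9 rose and 5 fell. *Mmp7*, matrilysin of epithelial and Paneth cells, had 559.6, 392, 253, 363 and 428 CPM in tumors, against 1.12, 0.542, 25.1, 2.46 and 14.8 CPM in adjacent normal tissue, with mouse2903 and mouse3883 the highest adjacent normal libraries. *Mmp13*, a collagenase, had 557, 65.9, 103, 70.1 and 438 CPM in tumors, against 13.9, 3.48, 8.03, 3.57 and 6.09 CPM in adjacent normal tissue, and mouse2901 and mouse3883 stood above the other tumors (log2 fold change 5.14, SE 0.68). *Mmp10*, a stromelysin, rose, with 341, 109, 102, 91.6 and 262 CPM in tumors and 10.8, 2.32, 2.72, 2.60 and 5.47 CPM in adjacent normal tissue, and the same mice held the highest levels in both tissues. *Spock2*, a matrix proteoglycan, rose (5.38), with 1126, 1495, 1799.6, 1288 and 1804 CPM in tumors and 9.66, 9.72, 87.6, 10.5 and 63.3 CPM in adjacent normal tissue.

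Clock genes were mostly lower, and of 18 tested 9 fell and 1 rose. *Nr1d1*, the clock repressor REV-ERB alpha, had 19.8, 26.5, 30.2, 29.4 and 21.6 CPM in tumors, against 121, 139.5, 67.7, 92.0 and 112 CPM in adjacent normal tissue (-2.06), and *Hlf*, an output factor, fell (-2.92). *Nfil3*, which represses the same D-box genes, rose (1.61). The hour at which tissue was taken is not given in the sources used here. The heat shock gene *Hspa1a* fell (-1.86) and the AP-1 subunit *Fosl1* rose (2.81).

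Tumors were more alike than the adjacent normal tissues. Over the 13058 genes whose mean log2 CPM reached 1, the median SD of log2(CPM + 1) over 5 libraries was 0.156 in tumors and 0.255 in adjacent normal tissue, and 26.1% of the genes varied more among tumors. Single tumors took unequal shares of the extreme levels. Of the 2764 genes called lower, the tumor of mouse2904 held the highest tumor level in 53.3% and that of mouse2901 the lowest in 43.9%. Of the 1631 called higher, the tumor of mouse2904 was the highest in 3.31% and the lowest in 29.0%, and that of mouse2901 was the highest in 30.2% and the lowest in 30.3%. Among adjacent normal libraries, the highest level of these genes lay in mouse2901 for 32.4%, mouse2903 for 30.0% and mouse3883 for 21.9%. Among genes of at least 10 CPM in a tumor, *Tgm4*, the prostate transglutaminase, was one of the 8 most variable, with 0.239, 3.60, 69.4, 1.88 and 0.202 CPM in tumors and 0.0647, 0.150, 0.223, 0 and 0.101 CPM in adjacent normal tissue, mouse2903 standing alone.

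Most genes that changed in *Il23r*ΔTreg tumors had the same sign in WT tumors. Of the 1631 genes called higher, 98.1% were positive in WT mice as well and 1199 were called there, which is 73.5% of this list and 58.0% of the 2067 genes called higher in WT mice. Of the 2764 called lower, 91.0% were negative in WT mice and 1745 were called, which is 63.1% of this list and 79.0% of the 2210 genes called lower in WT mice. Another 15 of those called lower were called higher in WT mice, and 0 of those called higher were called lower there. By the test of the difference between the genotypes' tumor changes, edgeR's quasi-likelihood test called 0 of 17122 genes, with 2370 at an unadjusted p under 0.05 (13.8%) and a smallest adjusted p of 0.159. The number at an unadjusted p under 0.05 was 3707 without WT mouse2989, 1506 without WT mouse2990, 1633 without the *Il23r*ΔTreg mouse2901 and 1438 without both libraries of mouse2901 and mouse3883. The same test with mouse as a block called 1, limma called 0 and DESeq2 called 349. An unadjusted p under 0.05 was found for 87.5% of 24 dendritic cell and class II genes, 85.7% of 28 B cell and plasma cell genes and 79.3% of 29 T cell and NK cell genes, against 3.57% of the Wnt feedback list and 4.17% of the smooth muscle list. The difference was negative, that is the tumor change was lower in *Il23r*ΔTreg than in WT mice, for 24 of the 24 dendritic cell genes, 26 of the 28 B cell genes and 28 of the 29 T cell genes. The adjacent normal library of mouse2901 had the highest sum of its group in the dendritic cell, B cell and T cell lists. It held 3550 CPM for dendritic cell and class II genes (853 to 1955 CPM in the other 4) and 218 CPM for T cell and NK cell genes (110 to 163 CPM in the other 4). Without that library the shares were 79.2% for dendritic cell, 71.4% for B cell and 75.9% for T cell genes. Without WT mouse2989 they were 58.3% for dendritic cell, 60.7% for B cell and 62.1% for T cell genes, and without both libraries of mouse2901 and mouse3883 the numbers were 9 of 24 dendritic cell, 14 of 28 B cell and 19 of 29 T cell genes. In WT mice the share of 18S ribosomal RNA was 6.62 to 29.7% among tumors, with a lowest normalization factor of 0.67, and 2.39 to 19.4% among adjacent normal libraries. With that gene left out, 2394 genes had an unadjusted p under 0.05 for the difference. Genes of a list share cells and libraries, and the 3 WT mice came from 1 cage, so these shares are a description. The lowest p-values fell on *Ccdc69* and *Cd27*, a receptor of T and B cells. *Ccdc69* had a log2 fold change of -1.45 in *Il23r*ΔTreg mice and 0.52 in WT mice (adjusted p = 0.16 for the difference by edgeR's quasi-likelihood test). *Cd27* had -1.47 in *Il23r*ΔTreg mice and 2.30 in WT mice (adjusted p = 0.16 by the same test), and its fall in *Il23r*ΔTreg mice missed the threshold without mouse2901, with -1.02 (adjusted p = 0.052 by the same test), and with mouse as a block, with -1.25 (adjusted p = 0.0525 by the same test).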

How the data were processed

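Whole-tissue RNA-seq libraries from 16 tissue samples were used, 10 of them from *Il23r*ΔTreg mice. Per the labels and the methods of the study, libraries were stranded and selected for poly(A) RNA. The submitters' processing notes name fastp 0.20.0, Salmon 1.4.0, R 4.1.2, limma 3.50.3 and DESeq2 1.34.0, with transcripts quantified and summed per gene by the authors. The values used here are the counts per gene that the authors deposited, as whole numbers without normalization, for 19574 genes. Because Salmon divides reads between similar genes, counts of near copies such as defensins are uncertain. In the deposited tables, 64 columns matched no label and were not used. The deposited normalized values were not used, and columns holding the authors' own fold changes and p-values were left out.

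Samples were grouped by genotype and tissue from their titles. Counts were filtered with filterByExpr at a minimum count of 10, which kept 17122 genes, normalized by TMM and tested with edgeR 4.0.16 (R 4.3.3) by the quasi-likelihood F test with 1 mean per group over 4 groups. P-values were adjusted by the Benjamini-Hochberg method over all genes tested, and a call needed an adjusted p under 0.05 together with a log2 fold change beyond 1. SEs were derived from the F statistic. Levels are CPM on TMM-normalized library sizes. The difference between genotypes was an interaction contrast in the same fit. The test was run on simulated counts with planted changes and without pairing of libraries. That run checks the code and does not measure how the test performs on these tissues. No pair of libraries held identical values. Precision is limited by 5 mice per tissue, and library totals ran from 39416334 to 60836474 counts. By the labels, a tumor and its adjacent normal tissue with the same mouse number come from the same animal. The deviations of the 5 pairs from their group means correlated only weakly, at 0.0522 to 0.161 across genes. The tumor of mouse2902 correlated best with the adjacent normal library of mouse2904, and each other tumor with its own.

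The comparison and the 56 gene lists (1315 genes, of which 1243 were tested) were chosen with earlier results of these data known. Genes were named by rule: the 12 largest called changes in each direction without overlap whose mean log2 CPM reached 1, up to 4 called members of each list in each direction with the smallest p (or the 2 of highest level where none was called), the 10 largest differences in mean CPM in each direction, the 8 most variable genes within each tissue, the 5 smallest p-values for the genotype difference in each direction, and the genes of IL-23, its receptor and *Foxp3*. *Abcb1a*, *Cdh5*, *Cdkn1a*, *Cdkn2a*, *Col1a1*, *Cyp2c68*, *Epcam*, *Hnf4a*, *Hoxb5*, *Igf2*, *Lgr5*, *Mki67*, *Mptx2*, *Notum* and *Pecam1* lie outside the rule and were named after their values were seen. Some genes that the rule selects are not reported here. Promoter sequences are from RefSeq (GRCm38.p6), and the motifs searched in them were chosen after seeing the data. Alternatives used DESeq2 1.42.0, limma 3.58.1 with a prior count of 3, other normalizations and filters, mouse as a block, and fits leaving out mice or libraries. The 4 fits that leave out single libraries or both libraries of a pair of mice were chosen after seeing the data.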

Additional observations from a re-analysis of the deposited data

Results flagged for a closer look

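In 10 of 349 groups of 5 libraries examined, a single library lay apart from the other 4 by Dixon's criterion, which chance would give in about 5% of groups. Of these, 5 were the adjacent normal library of mouse2901. It was high in *Acod1* (4.83 CPM), *Lcn2* (14.1 CPM) and *Nts* (0.992 CPM) and low in *Cyp2c68* (43.2 CPM) and *Scg3* (3.51 CPM). Among the other adjacent normal libraries, mouse2903 was high in *Il23a* (1.36 CPM), mouse2904 in *Klf4* (668 CPM) and mouse3883 in *Cldn6* (0.202 CPM). Among tumors, mouse2903 was low in *Itln1* (85.6 CPM) and mouse2904 was high in *Sfrp2* (7.94 CPM). Tumor and adjacent normal values of these 10 genes did not overlap with these libraries included.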

How the results depend on the processing

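The number of genes higher in tumors was 1631 and ran from 1269 to 1881 under the alternatives, apart from 3675 at an adjusted p under 0.05 with no fold limit and 941 with a test against the fold threshold (glmTreat). The number of lower genes was 2764 and ran from 2124 to 2982, apart from 4336 and 1582 under the same settings. Leaving out single mice gave 1462 to 1704 higher and 2453 to 2851 lower genes. With mouse as a replicate block, which follows the pairing of tissues within animals, 1548 genes were higher and 2383 lower. The number of genes whose tumor change differed between genotypes was 0 by edgeR, 1 with the replicate block and 349 with DESeq2. Scaling by library size alone moved the median over all genes to 0.11 on the log2 scale, against -0.001. Of list counts under the alternatives, 2582 stayed within 1.5 times the reported count and 218 did not. Of named genes under the alternatives, 3737 values kept sign and call, 16 lost the call, 2 gained it and 5 turned sign, and *Tgm4*, to which DESeq2 gave no adjusted p, was not counted under that tool. These values leave out the settings with no fold limit, with an adjusted p under 0.01 and with glmTreat, which were not applied to named genes. The values that turned sign were of genes near 0 in the main fit. *Foxp3* ran from -0.25 to 0.53 when single mice were left out and was -0.0077 without only the tumor of mouse2904, and *Col1a1* ran from -0.18 to 0.26 when single mice were left out. Under all these alternatives *Foxp3* reached 0.95 and *Col1a1* 0.42, and neither was called in any. *Krt5* was 5.52, and called, without both libraries of mouse2901 and mouse3883. Among named genes the replicate block changed the call of *Cd27* alone. The cause of these shifts was not tested. Bulk tissue and 5 mice per tissue limit the precision, and cage was not separable from genotype.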
